A study of Mus musculus with 58 samples.

Results

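Dusp9, Klhl13, Nr0b1 and Tfe3 are X-linked genes with known roles in the mitogen-activated protein kinase (MAPK) pathway or in pluripotency, and they were taken by name as 4 of the 22556 genes in the count files, of which 908 lay on the X chromosome. All 4 were also among the 246 X-linked genes for which the deposited allelic ratio table holds values. The libraries were made from chromatin-bound RNA (ChrRNA-seq, which enriches for nascent transcripts) of female mouse embryonic stem cells (ESCs) from a 129S x Cast cross, a hybrid in which sequence differences assign RNA fragments to the 129S-derived chromosome, called Dom here, or to the Cast chromosome. In every line, iXist-ChrX-Dom, the promoter of the endogenous Xist gene on the Dom X was replaced by a doxycycline-inducible one, so that doxycycline at 1 ug/mL starts X inactivation on the Dom X alone. The 58 libraries formed 28 groups, 26 of 2 libraries and 2 of 3.

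The groups came from 8 arms. WT had no further change, and SPOC carried a mutation of the SPOC domain of Spen, an Xist-binding protein (clones C11, D9 and H1 in ESCs, and D9 and H1 on differentiation). DelPID lacked the B/C repeat of Xist, the PID region through which Polycomb is recruited, and DelPID_SPOC (clones A8 and G3) combined both, although for those libraries the sample characteristics list the deletion alone and the SPOC mutation appears in the titles only. The paper describes clone G of this line, taken here to be G3, as tetraploid, with each X allele doubled. The lines FKBP12-PCGF35 and FKBP12-PCGF35_SPOC (clones F10 and F6) carried degron tags on the Polycomb proteins PCGF3 and PCGF5, and each was sampled without degrader (PCGF35_ctrl, PCGF35_SPOC_ctrl) and with dTAG-13, given 12 h before doxycycline (PCGF35_dTAG, PCGF35_SPOC_dTAG). Uninduced ESCs of the dTAG-13 arms had the degrader but no doxycycline. By the paper's methods, dTAG-13 stayed in the medium during differentiation. All arms but WT and DelPID, 6 in number, were sampled as uninduced ESCs (ES d0), as ESCs after 1 day of doxycycline (ES d1), and after 3 and 6 days of doxycycline in N2B27 medium towards neural precursor cells (NPC d3 and NPC d6). WT and DelPID entered at NPC d3 and NPC d6 only. From ES d0 to the NPC samples the medium, the time and doxycycline changed together, so their contributions cannot be told apart, whereas from ES d0 to ES d1 the medium stayed the same. Clones and cultures were the replicates. The reported fits took every library as independent, so the p-values measure the spread between libraries within groups. The same clones recur across the groups of a line, and PCGF35 and PCGF35_SPOC enter both with and without dTAG-13. In PCGF35_SPOC, same-clone libraries deviated alike from their group means (median r = 0.41 over 56 pairs of libraries). This pairing entered only in an alternative fit with a clone or replicate block.

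Female ESCs keep both X chromosomes active, and double X dosage is known to dampen MAPK signalling and to favour the naive pluripotent state until one X is silenced. Dusp9 encodes a dual-specificity phosphatase that removes phosphate from ERK. Klhl13 encodes a substrate adaptor of the CUL3 ubiquitin ligase, and both genes are known X-linked candidates for the dosage effect. Nr0b1 (Dax1) encodes an orphan nuclear receptor of the naive pluripotency network, and Tfe3 encodes a basic helix-loop-helix leucine zipper factor of the MiT/TFE family that regulates lysosomal genes and, when nuclear, holds ESCs in the naive state.

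In mm10, Dusp9 spans chrX:73639440-73643514 on the plus strand (4075 bases), Klhl13 chrX:23219270-23365082 on the minus strand (145813 bases), Nr0b1 chrX:86191774-86195944 on the plus strand (4171 bases) and Tfe3 chrX:7762660-7775202 on the plus strand (12543 bases). No other gene of the count files overlapped any of them on either strand. Their distances from the Xist gene start were 17.3 megabases for Nr0b1, 29.8 for Dusp9, 80.1 for Klhl13 and 95.7 for Tfe3. The RefSeq promoter sequences of the genes (GRCm38.p6, from 250 bases before to 50 after the start, 5′ to 3′ on the gene's strand) were read for 3 of the 4, Dusp9 having no entry in the table used. They are shown because, averaged over the 6 arms sampled at every stage, Nr0b1 and Klhl13 were called lower in level at NPC d6 and Tfe3 was not. Where the table held more than 1 window (5 for Klhl13 and 2 for Tfe3), the one nearest to the gene start in the count files was taken, and the others were not searched. Capitals mark exact matches, on either strand, to AGGTCA (a core motif of nuclear receptors) or TATAAA (the TATA box), and CACGTG (an E-box, the kind of motif MiT/TFE factors bind) was searched too.
Nr0b1: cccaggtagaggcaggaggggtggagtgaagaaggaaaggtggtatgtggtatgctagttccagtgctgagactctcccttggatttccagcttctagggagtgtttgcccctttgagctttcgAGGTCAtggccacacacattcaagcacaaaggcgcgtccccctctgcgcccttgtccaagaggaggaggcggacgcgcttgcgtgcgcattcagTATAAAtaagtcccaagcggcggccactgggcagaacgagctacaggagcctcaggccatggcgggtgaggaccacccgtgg
Klhl13: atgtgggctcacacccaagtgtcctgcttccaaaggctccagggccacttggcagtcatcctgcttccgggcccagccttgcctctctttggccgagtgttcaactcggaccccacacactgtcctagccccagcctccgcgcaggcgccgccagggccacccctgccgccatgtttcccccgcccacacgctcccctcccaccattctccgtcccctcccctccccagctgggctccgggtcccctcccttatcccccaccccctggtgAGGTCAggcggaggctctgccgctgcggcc
Tfe3: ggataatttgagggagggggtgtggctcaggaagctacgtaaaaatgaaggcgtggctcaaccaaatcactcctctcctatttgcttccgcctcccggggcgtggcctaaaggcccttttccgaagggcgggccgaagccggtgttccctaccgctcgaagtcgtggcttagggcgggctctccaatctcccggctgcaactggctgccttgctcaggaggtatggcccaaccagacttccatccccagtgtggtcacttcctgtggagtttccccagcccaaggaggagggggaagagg
The windows lay at chrX:86191525-86191824, chrX:23365033-23365332 and chrX:7762411-7762710 in the same order. The Nr0b1 window held AGGTCA starting 126 bases before the start and TATAAA 32 bases before it, the Klhl13 window held AGGTCA starting 20 bases after the start, and the Tfe3 window held none of the 3 motifs. Among all 32851 promoter windows of the table, 16.3% held AGGTCA, 13.6% TATAAA and 7.15% CACGTG. The windows had 14 (Nr0b1), 15 (Klhl13) and 14 (Tfe3) CG dinucleotides, against a median of 7 over all windows. A match describes the letters only.

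The libraries held 2292261 to 30005305 gene-assigned fragments, and DelPID NPC d6 replicate 1 (2292261) and DelPID NPC d3 replicate 1 (6372321) were the shallowest. Xist, the induced gene, stood at 34.2 to 135 counts per 1e6 assigned fragments (CPM) at ES d0, 2377 to 5347 at ES d1 and 4488 to 13370 at NPC d6. Of the marker lists, the summed CPM of 8 pluripotency genes had a median of 1604 at ES d0 and 691 (359 to 1319) at NPC d6, and that of 10 neural precursor genes of 41.1 and 110 (32.2 to 403), with Sox2 and Sox1 listed at 0 in every library. Neither of these genes adds to its sum, and whether the 0 comes from the cells or from the counting was not tested. The neural sum passed the pluripotency sum in 0 of 16 NPC d3 and 1 of 16 NPC d6 libraries. The order of these unlike lists does not decide cell identity, since Esrrb (median 353 CPM) and Zfp42 (158) dominate the pluripotency sum at NPC d6. The label NPC stands here for the culture and not for a cell type. Feeder fibroblast genes (7) and endoderm genes (4) summed to at most 141 and 172 CPM at NPC d6. In bulk RNA, fewer cells of a type and less RNA per cell cannot be told apart.

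Before induction, the 4 genes were transcribed at unlike levels per gene length. The median CPM per kilobase of gene over the 13 ES d0 libraries was 8.87 for Klhl13, 5.87 for Nr0b1, 3.37 for Tfe3 and 2.66 for Dusp9. The ranges of Klhl13 (7.55 to 11.9) and Nr0b1 (2.88 to 8.61) overlapped, as did those of Tfe3 (2.29 to 4.06) and Dusp9 (2.04 to 6.26) with that of Nr0b1. Allelic fragments per library numbered 415 to 19045 (median 5647) for Klhl13, 22 to 529 (264) for Tfe3, 9 to 452 (136) for Nr0b1 and 2 to 98 (29.5) for Dusp9. A library's Dom share, the percent of a gene's allelic fragments assigned to Dom, was therefore printed only from 10 allelic fragments, which Klhl13 and Tfe3 reached in all 58 libraries, Nr0b1 in 57 and Dusp9 in 47.

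At ES d0 the Dom shares of Dusp9 and Tfe3 lay on both sides of 50%, and those of Nr0b1 and Klhl13 lay below 50% in all 13 libraries. Tfe3 had 47.3 to 59.5% (median 52.9%), Dusp9 36.5 to 58.5% (51.3%) and Nr0b1 36.2 to 49.1% (44.0%). Klhl13 had 31.4 to 38.7% (33.4%), a range that reached the 3 lowest Nr0b1 values and the lowest Dusp9 value. The median share of the 246 X-linked genes was 50.0 to 53.1% in the same libraries, and Klhl13 ranked at the 2.04th to 7.85th percentile of these genes. For Klhl13, changes in share are therefore also given as the percent of the arm's own day 0 share that was kept.

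**Figure D1:**
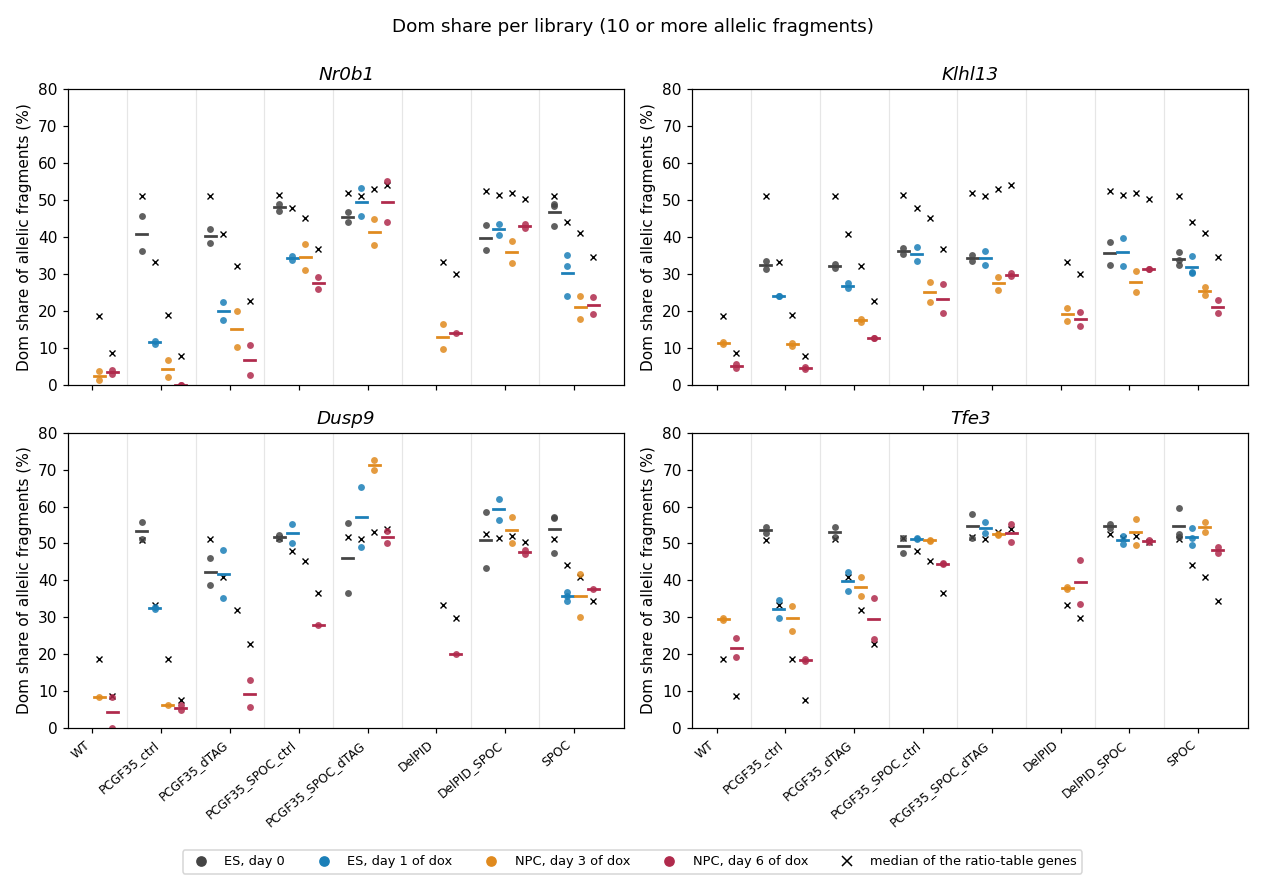
Dom share (y axis, percent of allelic fragments) of each gene in each library (points), by arm and sampling, with the median of the 246 X-linked genes marked by x; libraries under 10 allelic fragments for a gene are not drawn. At ES d0 Klhl13 starts at 31.4 to 38.7%, below the other genes' medians, and at NPC d6 the PCGF35_ctrl and WT points are the lowest for Klhl13 (4.25 to 5.55%) while Tfe3 keeps 18.1 to 24.3%.

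After 1 day of Xist induction in unchanged ESC medium, the Dom shares were compared with ES d0 within each arm. Differences between arms at ES d1 are not reported here. A gene called in some arms and not in others therefore does not show a need for the SPOC domain or PCGF3/5. In PCGF35_ctrl, the Dom share of all 4 genes fell by ES d1, and that of Nr0b1, the nuclear receptor, went lowest. Nr0b1 had Dom shares of 36.2 and 45.6% at ES d0 and of 11.9 and 10.9% at ES d1, groups far apart, for a log2 change of the Dom to Cast ratio of -2.42 ± 0.28 (SE; edgeR quasi-likelihood test, adjusted p = 3.18e-11). Tfe3 went from 54.4 and 52.9% to 29.8 and 34.8% (log2 change -1.26 ± 0.22, adjusted p = 2.24e-06). Dusp9 went from 55.7 and 51.1% to 32.8 and 32.3%, and the test gave -1.28 ± 0.42 with an adjusted p of 0.0054. Klhl13 went from 33.4 and 31.4% to 24.0 and 23.9% (-0.60 ± 0.16, adjusted p = 0.00101). None of the 4 pairs of groups overlapped, and the share fell in 77.2% of the 246 X-linked genes. The Dusp9 call was lost without PCGF35_ctrl ES d0 replicate 1 (adjusted p = 0.0793) or ES d1 replicate 1 (adjusted p = 0.0518).

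Of its day 0 share Nr0b1 kept 27.8% at ES d1 in PCGF35_ctrl, which ranked 6 from the lowest of 246 genes, where the median gene kept 66.5%. Tfe3 kept 60.3%, Dusp9 60.9% and Klhl13 73.9%, all inside the interquartile range of the X-linked genes (53.1 to 78.0%). With PCGF3/5 degraded (PCGF35_dTAG), the share fell for Nr0b1 (42.1 and 38.5% to 17.4 and 22.3%, log2 change -1.44 ± 0.28, adjusted p = 3.86e-05), Tfe3 (-0.78 ± 0.22, adjusted p = 0.00376) and Klhl13 (-0.38 ± 0.16, adjusted p = 0.0453), against 50% of the X-linked genes. Dusp9 did not pass there (38.8 and 45.9% against 48.1 and 35.1%, log2 change 0.11 ± 0.41, adjusted p = 0.837). The Klhl13 call was lost without any 1 of the 4 libraries (adjusted p = 0.086 to 0.203), and that of Tfe3 without PCGF35_dTAG ES d1 replicate 2 (0.0881), which left 1 gene called.

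In the SPOC arm, Nr0b1 and Dusp9 passed at ES d1 and Klhl13 and Tfe3 did not, where 30.9% of the X-linked genes fell. The Nr0b1 shares were 48.3, 43.0 and 49.1% at ES d0 and 32.03, 35.0 and 24.1% at ES d1 (log2 change -0.95 ± 0.21, adjusted p = 0.000323). The Dusp9 shares were 57.1, 47.5 and 56.8% at ES d0 and 37.0, 35.7 and 34.3% at ES d1 (-1.07 ± 0.38, adjusted p = 0.0222), with no overlap in either gene. Tfe3 changed by -0.17 ± 0.19 (adjusted p = 0.544) and Klhl13 by -0.14 ± 0.13 (0.468). The Dusp9 call was lost, leaving 1 gene called, without ES d0 replicate 1 or 3 or ES d1 replicate 2 or 3 (adjusted p = 0.0517 to 0.114). None of the 4 genes passed in PCGF35_SPOC_ctrl (0.407% of the X-linked genes fell), in PCGF35_SPOC_dTAG (0%) or in DelPID_SPOC (0%). The Nr0b1 shares in PCGF35_SPOC_ctrl went from 49.0 and 47.0% to 33.9 and 34.7%, without overlap but with an adjusted p of 0.151 (log2 change -0.83 ± 0.30).

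The total level of the 4 genes, both alleles together, did not pass a test at ES d1 in PCGF35_ctrl. In PCGF35_ctrl the log2 changes were -0.63 ± 0.25 for Tfe3, -0.73 ± 0.49 for Dusp9, -0.29 ± 0.53 for Nr0b1 and 0.16 ± 0.26 for Klhl13 (edgeR, adjusted p = 1 for each). Only 4 of 16227 genes passed there in either direction, 0.0123% of them in the lower direction, with 264 genes at an unadjusted p under 0.05 and 9 genes called by DESeq2. Tfe3 stood at 47.6 and 48.7 CPM at ES d0 and at 28.6 and 33.2 at ES d1 in that arm, groups that did not overlap. The level of the Cast allele alone, whose chromosome Xist does not coat in these lines, did not pass for any of the 4 genes either, where 0.00731% of 13675 genes rose (1 gene, and Nr0b1 had a log2 change of 0.41 ± 0.51, Klhl13 of 0.35 ± 0.23).

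By NPC d6 in PCGF35_ctrl, the Dom share of all 4 genes was at its lowest, as in nearly every X-linked gene (98.4% of 246 fell). Nr0b1 had 0 of 27 and 0 of 17 allelic fragments from Dom, which allow shares of up to 11.1 and 17.6%. Against a floor of 3 fragments over the group (6.82%), its share was at least 6.00-fold lower than the ES d0 mean of 40.9% (adjusted p = 3.82e-08 in edgeR). Klhl13 had 4.25 and 4.74% (log2 change -3.36 ± 0.22, adjusted p = 2.82e-22). Dusp9 had 6.25 and 4.76%, from 32 and 21 allelic fragments (-4.24 ± 0.65, adjusted p = 1.48e-08). Tfe3 kept the most, with 18.8 and 18.1% (-2.34 ± 0.26, adjusted p = 1.1e-12). Such intervals and floors cover counting error only, since reads without molecular identifiers are not independent molecules.

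Expressed as the part of the day 0 share kept at NPC d6 in PCGF35_ctrl, the genes spread over the X-linked distribution. Tfe3 kept 34.4%, above 88.1% of the 243 genes with a value, Klhl13 kept 13.9% beside a median of 14.7%, and Dusp9 kept 10.3%. Tfe3 also lay above the median gene at NPC d6 in PCGF35_dTAG (55.9% kept, median 46.2%), PCGF35_SPOC_ctrl (90.2%, 70.8%) and SPOC (88.4%, 66.8%), and below it in PCGF35_SPOC_dTAG (96.4%, 103.6%) and DelPID_SPOC (92.5%, 96.8%). These ranks are descriptions of group means, with 2 libraries in most groups.

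**Figure D2:**
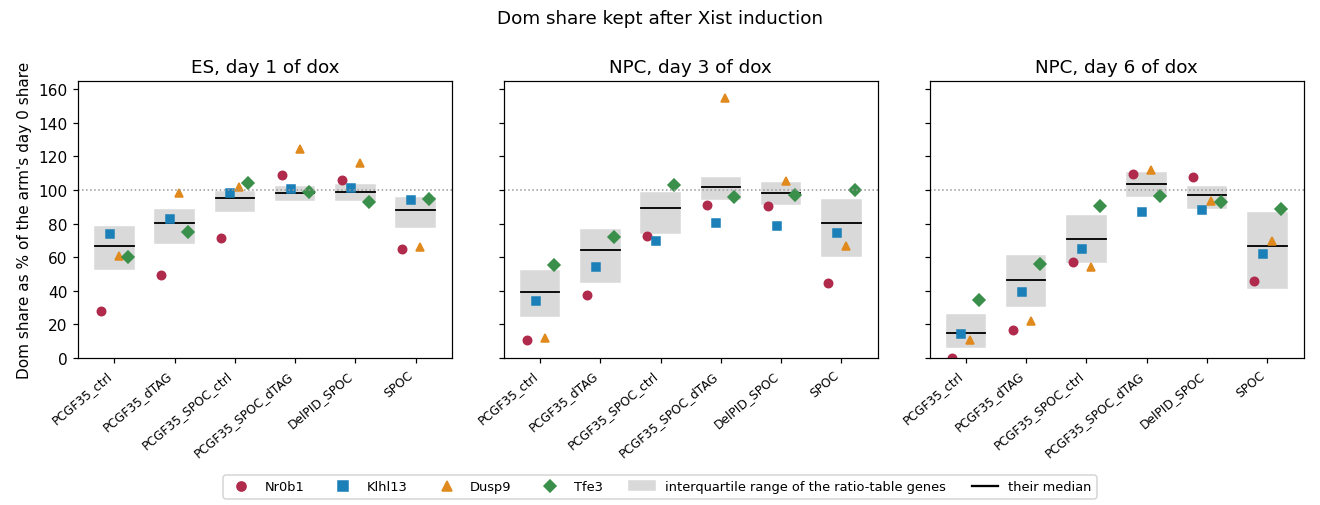
Dom share at ES d1, NPC d3 and NPC d6 as a percent of the same arm's ES d0 share (y axis) for each gene (points) in each arm, with the interquartile range of the ratio-table genes as a grey box and their median as a line. In PCGF35_ctrl Nr0b1 lies under the box at ES d1 (27.8% kept) and Tfe3 above it at NPC d6 (34.4%). In PCGF35_SPOC_dTAG and DelPID_SPOC, Klhl13 (80.2 and 78.5%) and Nr0b1 (91.3 and 90.2%) lie under the box at NPC d3.

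With PCGF3/5 degraded, all 4 genes fell from ES d0 to NPC d6, as did 91.9% of the X-linked genes, to higher shares than without dTAG-13 for 3 of them. Klhl13 had 12.6 and 12.5% at NPC d6 (log2 change from ES d0 -1.73 ± 0.18, adjusted p = 2.12e-13) and Tfe3 24.0 and 35.3% (-1.44 ± 0.22, adjusted p = 5.7e-08). Nr0b1 had 10.8 and 2.70% and Dusp9 5.56 and 13.04%, both passing with adjusted p = 9.82e-08 and 6.87e-06. Set against PCGF35_ctrl at NPC d6, the share in PCGF35_dTAG was higher for Klhl13 (log2 difference 1.62 ± 0.24, adjusted p = 2.32e-08), Tfe3 (0.88 ± 0.28, 0.00443) and Nr0b1 (adjusted p = 0.0258), against 79.7% of the X-linked genes, and Dusp9 did not pass (0.82 ± 0.93, 0.411). The Nr0b1 call was lost without PCGF35_ctrl replicate 1 or 2 or PCGF35_dTAG replicate 1 (adjusted p = 0.0696 to 0.244), and that of Tfe3 without PCGF35_dTAG replicate 2 (0.187). With these groups fitted alone, 1 gene was called in place of 3.

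Lines with the SPOC mutation had higher Dom shares at NPC d6 than their counterparts without it for most of the genes. Between SPOC and WT, all 4 genes were higher, against 80.1% of the X-linked genes. Klhl13 had 4.48 and 5.55% in WT and 19.4 and 22.8% in SPOC (log2 difference 2.33 ± 0.21, adjusted p = 9.25e-16). Tfe3 had 19.3 and 24.3% in WT and 49.1 and 47.4% in SPOC (1.76 ± 0.26, adjusted p = 1.71e-08). Nr0b1 had 4.00 and 2.86% in WT and 19.1 and 23.8% in SPOC (2.82 ± 0.73, adjusted p = 0.000465), so that for these genes no WT value reached a SPOC value. Dusp9 rested on 0 of 26 and 1 of 12 Dom fragments in WT and on 6 of 16 and 0 of 3 in SPOC (adjusted p = 0.00389). Without SPOC replicate 1 its difference turned to -0.16 (adjusted p = 0.724), and without WT replicate 1 it was not called (adjusted p = 0.138).

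From ES d0 to NPC d6 within the SPOC arm, Klhl13 (log2 change -0.95 ± 0.16, adjusted p = 3.38e-07) and Nr0b1 (-1.69 ± 0.33, adjusted p = 1.16e-05) fell, as did 63.4% of the X-linked genes. Tfe3 went from 59.5, 52.6 and 51.8% to 49.1 and 47.4%, not overlapping but short of the threshold (-0.36 ± 0.21, adjusted p = 0.128), and Dusp9 did not pass (-1.33 ± 0.72, 0.101). In PCGF35_SPOC_ctrl, Klhl13 (adjusted p = 7.3e-06), Nr0b1 (0.00569) and Dusp9 (0.0314) fell and Tfe3 did not pass (44.3 and 44.7% at NPC d6, 0.256), beside 62.2% of the X-linked genes. The Dusp9 call there was lost without any 1 of the 4 libraries (adjusted p = 0.0593 to 0.235). Between PCGF35_SPOC_ctrl and PCGF35_ctrl at NPC d6, all 4 genes were higher in the SPOC mutant, against 90.7% of the X-linked genes. Klhl13 differed there by 2.69 ± 0.23 (adjusted p = 7.97e-17), Tfe3 by 1.82 ± 0.28 (2.14e-08), and Dusp9 by 2.60 ± 0.92 (0.00754), the last lost without PCGF35_SPOC_ctrl replicate 1 (0.118).

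With the SPOC mutation and PCGF3/5 degradation together, none of the 4 genes changed detectably in share between ES d0 and NPC d6, where 0.407% of the X-linked genes fell. In PCGF35_SPOC_dTAG at NPC d6, Tfe3 had 55.2 and 50.4%, Nr0b1 55.2 and 44.0%, Dusp9 50.0 and 53.3%, and Klhl13 29.3 and 30.1%. The median share of the X-linked genes was 58.1% in clone F10 and 50.0% in F6, against 51.5 and 52.3% at ES d0. Loss of the Cast X from some cells, which would raise every Dom share, was not tested. For a clone of this line, not called F10 or F6 in its legend, the paper interprets raised ratios on differentiation as selection for such cells. It also reports XO cells in F6, which was subcloned before sequencing. The log2 changes from ES d0 were -0.15 ± 0.23 for Tfe3, 0.07 ± 0.36 for Nr0b1, 0.39 ± 0.54 for Dusp9 and -0.30 ± 0.17 for Klhl13 (edgeR, adjusted p = 0.428 to 0.945). The change from ES d0 to NPC d6 differed between PCGF35_SPOC_dTAG and PCGF35_ctrl for all 4 genes, as for 96.3% of the X-linked genes. The difference was 2.19 ± 0.35 for Tfe3 (adjusted p = 6.27e-08), 3.06 ± 0.28 for Klhl13 (1.11e-15) and 4.62 ± 0.89 for Dusp9 (2.96e-06), and Nr0b1 passed with an adjusted p of 5.55e-07. Against PCGF35_SPOC_ctrl at NPC d6, the share with dTAG-13 was higher for Klhl13 (0.49 ± 0.17, adjusted p = 0.011) and Nr0b1 (1.17 ± 0.44, 0.0166), with 70.3% of the X-linked genes, and Tfe3 (0.46 ± 0.24, 0.08) and Dusp9 (1.47 ± 0.69, 0.0519) did not pass. Neither gene was called without PCGF35_SPOC_ctrl replicate 1 (adjusted p = 0.488 for Klhl13 and 0.0739 for Nr0b1), Nr0b1 was not called without replicate 1 of PCGF35_SPOC_dTAG (0.0731) or replicate 2 of PCGF35_SPOC_ctrl (0.0674), and with these groups fitted alone 0 genes were called.

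DelPID also had higher shares than WT at NPC d6, for all 4 genes and for 85.4% of the X-linked genes. Klhl13 had 19.8 and 15.9% in DelPID (log2 difference from WT 1.96 ± 0.22, adjusted p = 7.54e-12) and Tfe3 had 45.5 and 33.6% (0.96 ± 0.29, 0.00226). Nr0b1 rested on 0 of 9 and 41 of 291 Dom fragments in DelPID (2.03 ± 0.75, 0.0117), and Dusp9 on 3 of 5 and 3 of 15 (3.83 ± 1.25, 0.00451). Replicate 1 of DelPID was the shallowest library of the series. Without DelPID replicate 2 the Nr0b1 difference turned to -4.72 (adjusted p = 0.563), and without WT replicate 1 only Klhl13 was called (Dusp9 0.15, Nr0b1 0.0624, Tfe3 0.0559). Nr0b1 was also not called without WT replicate 2 (0.0588). In DelPID_SPOC the share of none of the 4 genes passed between ES d0 and NPC d6, where 1.63% of the X-linked genes fell, and at NPC d6 it exceeded that of DelPID for Klhl13 (1.15 ± 0.19, 3.45e-07), Nr0b1 (2.27 ± 0.34, 4.07e-08) and Tfe3 (0.94 ± 0.25, 0.00087), with 70.7% of the X-linked genes. The Tfe3 difference was not called without DelPID replicate 2 (0.30, adjusted p = 0.712).

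At NPC d3, Klhl13 and Nr0b1 each kept less of their Dom share than the median X-linked gene in all 6 arms. Nr0b1 ranked at the 6.64th to 22.6th percentile, with 90.2% kept in DelPID_SPOC and 91.3% in PCGF35_SPOC_dTAG. Klhl13 ranked at the 4.47th to 41.1st, lowest in these same arms. Klhl13 kept 78.5% of its day 0 share in DelPID_SPOC (30.7 and 25.1% from 38.7 and 32.5%) and 80.2% in PCGF35_SPOC_dTAG (25.8 and 29.1% from 33.4 and 35.0%). Those values were lower than in all but 4.47 and 4.90% of the ratio-table genes, whose medians were 98.2 and 101.8%, and at NPC d6 Klhl13 kept 88.2 and 86.9%. The edgeR test did not pass for Klhl13 in either arm (log2 changes -0.51 ± 0.16 and -0.46 ± 0.17, adjusted p = 0.166 and 0.287). The share of X-linked genes called at NPC d3 is not reported here.

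On differentiation the total level of 3 of the 4 genes fell on average over the 6 arms, and that of Klhl13 was also called lower in arms in which no fall of its Dom share was called. Averaged over the 6 arms, the level at NPC d6 against ES d0 fell for Klhl13 (log2 change -1.54 ± 0.11, adjusted p = 1.31e-13), Nr0b1 (-1.35 ± 0.23, 5.64e-06) and Dusp9 (-0.76 ± 0.20, 0.00153), where 29.4% of 16227 genes fell. Tfe3 stayed within its error (0.03 ± 0.10, 0.801). Klhl13 fell in each of the 6 arms, from 1100 to 1733 CPM (median 1294) at ES d0 to 199 to 790 (463) at NPC d6, with no overlap in any arm. The steepest fall was in PCGF35_ctrl (1137 and 1184 CPM to 199 and 215, -2.46 ± 0.27, adjusted p = 2.13e-07) and the smallest in DelPID_SPOC (1732 and 1435 to 790 and 676, -1.11 ± 0.26, 0.00347). In PCGF35_SPOC_dTAG, in which no change in its Dom share was called, Klhl13 went from 1235 and 1427 CPM to 373 and 734 (-1.23 ± 0.26, 0.0049).

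Arm by arm at NPC d6, Klhl13, Nr0b1 and Tfe3 fell in PCGF35_ctrl (15.9% of genes fell), Klhl13 and Nr0b1 in PCGF35_dTAG (6.95%), Klhl13, Nr0b1 and Dusp9 in SPOC (16.8%), and Klhl13 alone in PCGF35_SPOC_ctrl (4.47%), PCGF35_SPOC_dTAG (3.04%) and DelPID_SPOC (9.41%). With each comparison's groups fitted alone, the Klhl13 calls of the last 3 arms were lost (adjusted p = 0.331, 0.81 and 0.114), and 0, 0 and 1 genes were called in all. Nr0b1 in PCGF35_ctrl went from 35.9 and 27.8 CPM to 3.09 and 2.72 (log2 change -3.43 ± 0.62, adjusted p = 0.00014). In DelPID_SPOC it stood at 24.5 and 25.1 CPM at ES d0 and at 18.9 and 29.7 at NPC d6, overlapping groups (-0.04 ± 0.53, 0.967). The summed pluripotency genes at NPC d6 came to 400 and 359 CPM in PCGF35_ctrl and to 1077 and 1319 in DelPID_SPOC, and their part in these levels was not tested. The Tfe3 fall in PCGF35_ctrl (47.6 and 48.7 to 27.7 and 29.9 CPM, -0.72 ± 0.25, 0.0289) was lost without any 1 of its 4 libraries (adjusted p = 0.0728 to 0.183). The Nr0b1 call was lost in PCGF35_dTAG without ES d0 replicate 1 or either NPC d6 library (0.128 to 0.352), leaving 1 gene called, and in SPOC without ES d0 replicate 1 or 2 or either NPC d6 library (0.0597 to 0.153). The Dusp9 call in SPOC was lost without ES d0 replicate 1 (0.0534) or NPC d6 replicate 2 (0.205), which left 1 gene called. The Klhl13 call in PCGF35_SPOC_dTAG was lost without NPC d6 replicate 1 (0.192) or ES d0 replicate 2 (0.0624), and without NPC d6 replicate 2 Nr0b1 was called too (-2.43, 0.0138). With the clone as a block, the members called lower in the 4 SPOC-mutant arms did not change, the Tfe3 change in SPOC (35.1, 28.7 and 41.6 to 50.5 and 43.4 CPM, 0.50 ± 0.22, adjusted p = 0.078) was called higher (0.49, 0.0346), and over all genes the calls in either direction went from 1196 to 3417 in PCGF35_SPOC_ctrl, from 871 to 3004 in PCGF35_SPOC_dTAG and from 3122 to 5393 in DelPID_SPOC.

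The NPC d6 levels of clones F10 and F6, replicates 1 and 2 of PCGF35_SPOC, differed, and so did their markers. With dTAG-13, F10 had 373 CPM of Klhl13, 2.67 of Nr0b1 and 23.4 of Tfe3, and F6 had 734, 16.1 and 50.6. Dusp9 went the other way, with 7.72 CPM in F10 and 3.99 in F6 with dTAG-13, and 10.1 and 3.49 without. The summed pluripotency genes stood at 418 CPM in F10 and 1143 in F6, and the summed neural precursor genes at 365 and 47.8. Without dTAG-13 the pluripotency sums were 477 and 1120 CPM and the neural sums 353 and 62.2, and Nr0b1 had 4.80 and 13.4 CPM. The fibroblast sum was 141 and 80.6 CPM in F10, with and without dTAG-13, and at most 8.65 in F6, and the endoderm sum was 39.2 and 51.6 CPM in F10 and 8.95 and 7.44 in F6. At ES d0 the neural sums already differed, with 111 and 110 CPM in F10, with and without dTAG-13, and 33.1 and 33.9 in F6. So did the fibroblast sums there (15.5 and 17.5 against 4.04 and 4.23 CPM), while the pluripotency sums were 1406 and 1377 CPM in F10 and 1530 and 1504 in F6. With dTAG-13, the 246 X-linked genes had 106339 of 7838701 allelic fragments in F10 and 133136 of 6344682 in F6. Without dTAG-13 they had 92188 of 6986889 in F10 and 91531 of 5063401 in F6. At ES d0 with dTAG-13 they had 177783 of 8257904 in F10 and 192652 of 7944420 in F6. The median Dom share of these genes at NPC d6 was 58.1% in F10 and 50.0% in F6 with dTAG-13, and 32.8 and 40.5% without. Neither the state of the culture nor a loss of the Cast X from some cells was tested for its part in the members' levels.

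**Figure D3:**
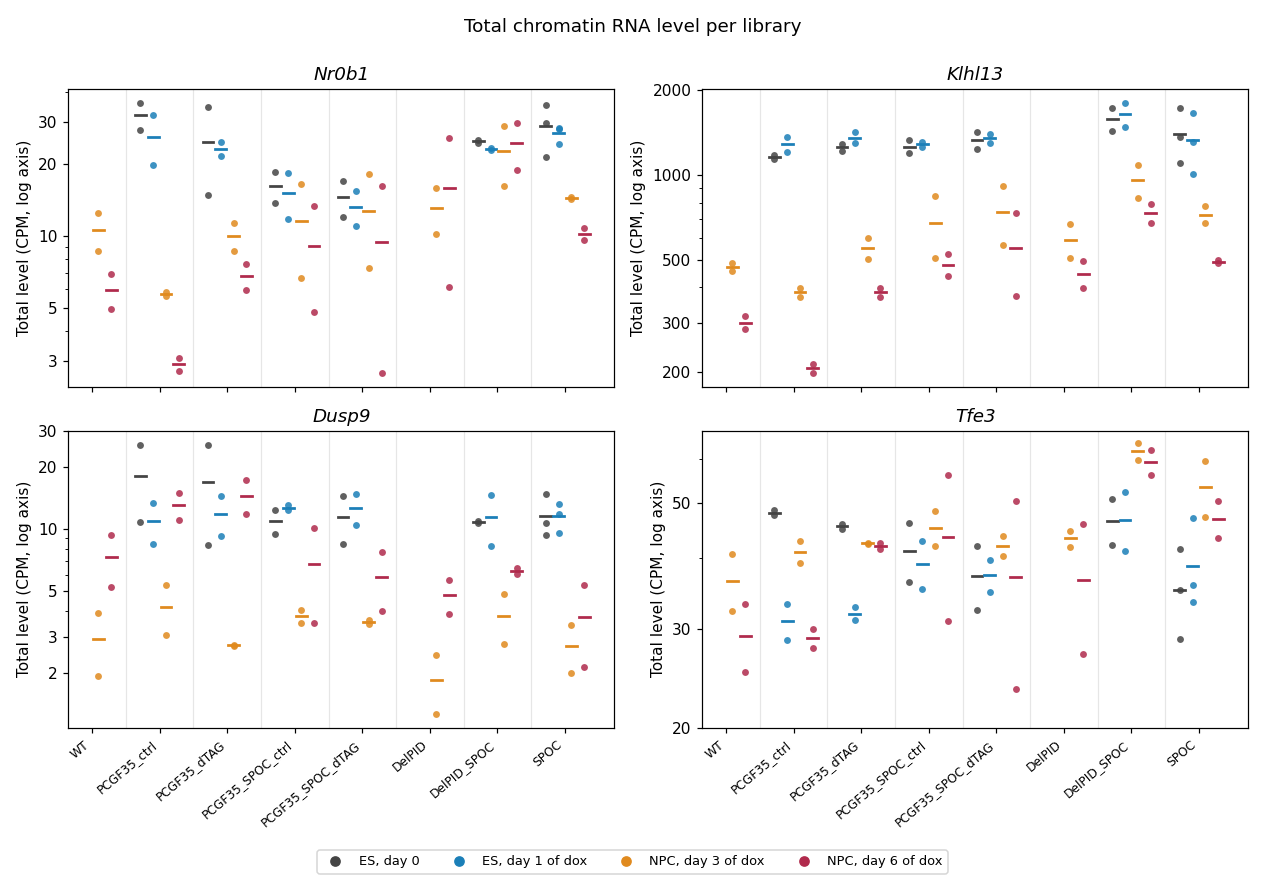
Total level of each gene (y axis, CPM, log scale) in each library (points) by arm and sampling. Klhl13 falls from ES d0 to NPC d6 in each of the 6 arms with ES d0 libraries. The Dusp9 mean of each arm is lowest at NPC d3 (libraries 1.26 to 5.32 CPM), and Tfe3 stays between 23.4 and 63.98 CPM in the NPC samples.

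Dusp9, the ERK phosphatase, was on average lowest at NPC d3 and not at NPC d6. In the 6 arms its level was 8.33 to 25.5 CPM (median 10.8) at ES d0, 2.00 to 5.32 (3.43) at NPC d3 and 2.13 to 17.2 (7.10) at NPC d6. Clone F6 of PCGF35_SPOC_ctrl went the other way, with 4.04 CPM at NPC d3 and 3.49 at NPC d6. Every NPC d3 library of the 6 arms had less Dusp9 than every ES d0 library. Averaged over the arms it fell at NPC d3 (-1.87 ± 0.21, adjusted p = 6.14e-09), as did Klhl13 (-0.96 ± 0.10, 3.12e-09) and Nr0b1 (-0.86 ± 0.22, 0.00125), where 29.2% of genes fell, while Tfe3 rose by 0.24 ± 0.10 (0.0398), beside 26.4% of genes. The Tfe3 rise was lost without 16 of 25 single libraries (adjusted p = 0.0503 to 0.0973) and with the size factors of DESeq2 (0.0596). In PCGF35_ctrl, Dusp9 (-2.03 ± 0.51, 0.00532), Klhl13 (-1.49 ± 0.26, 0.000186) and Nr0b1 (-2.38 ± 0.57, 0.00351) fell at NPC d3, beside 10.4% of genes. Without NPC d3 replicate 1 only Klhl13 was called there (Dusp9 0.102, Nr0b1 0.0507), and without ES d0 replicate 1 Dusp9 was not (0.158).

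From NPC d3 to NPC d6 the Dusp9 log2 change in PCGF35_ctrl was 1.57 ± 0.51 (3.04 and 5.32 to 11.1 and 15.0 CPM, no overlap), with an adjusted p of 0.102 beside 0.548% of genes that rose. It was positive in all 8 arms (0.50 to 2.33) and passed in none. The share of all genes called in the arms other than PCGF35_ctrl is not reported here, so these nulls say little about Dusp9. The summed endoderm genes went from 9.68 and 49.1 CPM at NPC d3 to 40.3 and 138 at NPC d6 in PCGF35_ctrl, and the library with the most Dusp9 at NPC d6 (17.2 CPM, PCGF35_dTAG replicate 2) had the highest endoderm sum (172 CPM). Their part in the Dusp9 level was not tested. ES d0 replicates of the PCGF35 line differed for Dusp9, with 25.5 and 10.8 CPM in PCGF35_ctrl and 25.5 and 8.33 in PCGF35_dTAG.

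In SPOC against WT and in PCGF35_dTAG against PCGF35_ctrl at NPC d6, the gains in Dom share came with no called difference in total level in the fit without a replicate block. SPOC against WT gave log2 differences of 0.78 ± 0.26 for Klhl13, 0.76 ± 0.25 for Tfe3, 0.85 ± 0.57 for Nr0b1 and -0.87 ± 0.52 for Dusp9 (adjusted p = 0.256 to 0.598), and 0% of genes rose (edgeR called 0 genes in either direction, with 1791 at an unadjusted p under 0.05, and DESeq2 called 78). The Klhl13 levels did not overlap (284 and 316 CPM in WT, 488 and 500 in SPOC), nor did those of Tfe3 (33.2 and 25.1 against 50.5 and 43.4). PCGF35_dTAG against PCGF35_ctrl gave 0.91 ± 0.26 for Klhl13 (399 and 370 against 199 and 215 CPM, adjusted p = 0.981), 0.56 ± 0.25 for Tfe3 and 1.24 ± 0.61 for Nr0b1, with 0% of genes called (756 at an unadjusted p under 0.05, and 0 called by DESeq2). With a replicate block within each line, Klhl13 (0.79, adjusted p = 0.0197 in edgeR) and Tfe3 (0.74, 0.0333) were called higher in SPOC than in WT, and Klhl13 in PCGF35_dTAG against PCGF35_ctrl (0.91, 0.0172). The difference in the change from ES d0 to NPC d6 between PCGF35_SPOC_dTAG and PCGF35_ctrl was 1.23 ± 0.36 for Klhl13 and 2.83 ± 0.81 for Nr0b1 (adjusted p = 0.295 and 0.292, beside 0.00616% of genes). Both were called with the clone or replicate block (1.18 and 2.64, adjusted p = 0.0123 and 0.0494) or without PCGF35_SPOC_dTAG NPC d6 replicate 1, clone F10 (1.64 and 3.61, 0.0195 and 0.0191).

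The level of the Cast allele alone fell from ES d0 to NPC d6 for Klhl13 and Nr0b1, and rose for Tfe3. In PCGF35_ctrl the Cast-allele level at NPC d6 fell for Klhl13 (log2 change -1.95 ± 0.24, adjusted p = 2.17e-06) and Nr0b1 (-2.55 ± 0.60, 0.00315), where 10.4% of 13675 genes fell. For Klhl13 the Cast fragments came to 325 ± 24 CPM (SD, n = 2) at ES d0 and 83.8 ± 2.0 at NPC d6. Averaged over the 6 arms, Klhl13 (-1.28 ± 0.10, 1.42e-12) and Nr0b1 (-0.97 ± 0.23, 0.000571) fell, beside 24.9% of genes, Tfe3 rose (0.30 ± 0.11, 0.0183), beside 27% of genes, and Dusp9 did not pass (-0.36 ± 0.22, 0.165). The Tfe3 rise was lost without NPC d6 replicate 2 of PCGF35_SPOC_ctrl (0.0724) or of PCGF35_SPOC_dTAG (0.126), clone F6 in both. The Nr0b1 call in PCGF35_ctrl was lost without NPC d6 replicate 1 (0.0589), which left 1 gene, and the Dusp9 average was called without PCGF35_dTAG ES d0 replicate 2 (-0.47, 0.0479). Between SPOC and WT at NPC d6 no member's Cast level passed, nor did any gene rise (0%).

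**Figure D4:**
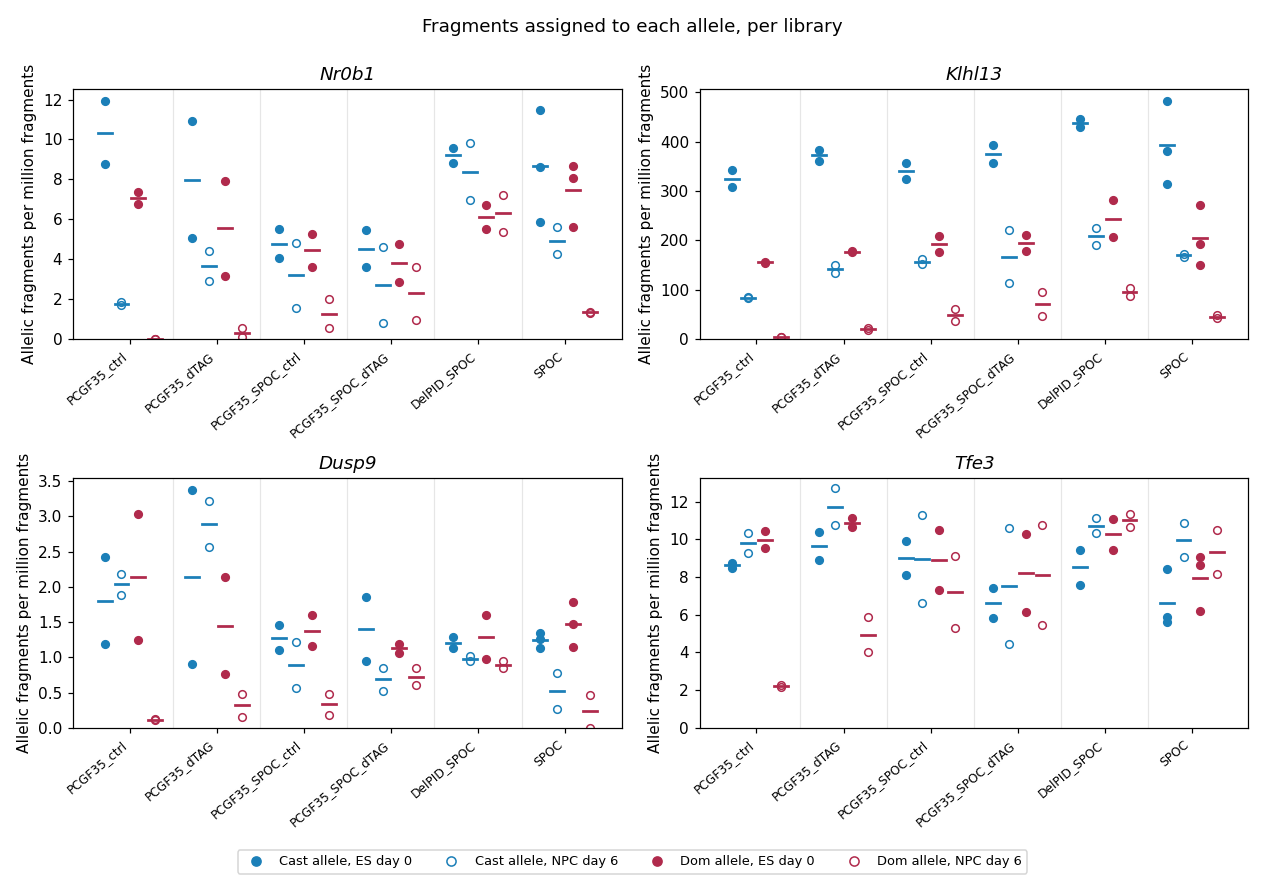
Fragments of the Cast and Dom alleles of each gene (y axis, CPM) in each library, at ES d0 (filled) and NPC d6 (open), by arm. Klhl13 lies lower at NPC d6 than at ES d0 on both alleles in every arm, and in PCGF35_ctrl Tfe3 keeps its Cast fragments (8.62 ± 0.17 and 9.80 ± 0.76 CPM, SD, n = 2) while its Dom fragments fall.

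Genes of the same pathways gave mixed directions, naive pluripotency genes excepted. Averaged over the 6 arms at NPC d6, 11 of 12 naive pluripotency genes fell in total level and 0 rose (list median -1.11, against 0.00 over all genes), Zfp42 by -1.84 ± 0.17, Tbx3 by -2.37 ± 0.25, Tfcp2l1 by -1.68 ± 0.19 and Klf5 by -1.15 ± 0.15. Arm by arm, 12 of these 12 genes fell in PCGF35_ctrl, 7 in PCGF35_dTAG, 6 in SPOC, 3 in DelPID_SPOC, 2 in PCGF35_SPOC_dTAG and 0 in PCGF35_SPOC_ctrl. Of 4 general pluripotency genes tested, Utf1 (0.97) and Sall4 (0.45) rose, Dppa5a fell (-1.54) and Pou5f1 had 0.25 (adjusted p = 0.0803). Of 16 ERK feedback and output genes, 7 rose and 6 fell (median 0.13), with falls for the immediate-early gene Fos (-2.20 ± 0.24) and the phosphatases Dusp1 (-1.69 ± 0.18) and Dusp5 (-0.93 ± 0.18), and a rise for the inhibitor Spred2 (0.68 ± 0.10). Of 9 other X-linked MAPK or pluripotency genes, 6 fell and 3 rose (median -0.38). The kinases Rps6ka6 (-1.34 ± 0.11) and Rps6ka3 (-0.80 ± 0.09), the ubiquitin ligase Rlim (-0.97 ± 0.14) and the ERK target Elk1 (-0.38 ± 0.06) were those with the smallest p. Of 10 MiT/TFE and lysosome genes, 4 fell, Mitf (-0.86 ± 0.15) and Tfeb (-0.99 ± 0.17) among them, and 2 rose, as Rragd (0.74 ± 0.19) did. Of 5 CUL3 partners, Rbx1 rose (0.71 ± 0.07) and Cul3 fell (-0.34 ± 0.08). Beside these lists, 29.4% of all genes fell and 29.4% rose.

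Over the 28 group means, the level of Nr0b1 (log2 of CPM + 1) was most like those of Klf2 (Pearson r = 0.96), Aard (0.95) and Il6st (0.95), and that of Klhl13 most like those of Mtf2 (0.97), Pla1a (0.97) and Mmrn2 (0.96). Tfe3 was most like Syn1 (0.85), 1810030O07Rik (0.83) and Nono (0.83), all X-linked, and Dusp9 most like P4ha2 (0.90), Msx2 (0.88) and Col27a1 (0.87). Klhl13 and Nr0b1 had r = 0.86 with each other. In Dom share, over 229 X-linked genes with a share in every group, Klhl13 was most like Gyk, Jade3 and Elk1, Nr0b1 most like Pls3, Dmd and Firre, and Tfe3 most like Otud5, Med14 and Zfx, with r of 0.96 to 0.98. Dusp9 lacked a share in some groups. These correlations describe groups that share cell lines, libraries and the course of Xist induction.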

How the data were processed

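Chromatin-associated RNA was sequenced from 58 libraries with a stranded kit. Ribosomal reads had been taken out with Bowtie2 (2.3.2) by the authors (submitters' processing notes and the paper's methods), who aligned the rest with STAR (2.4.2a) to mm10 with variant positions masked, split reads between 129S (Dom) and Cast, and counted fragments per gene with featureCounts. The deposited files hold raw counts per gene (total, Cast and Dom) for each library, without pooling. A deposited table gives the Dom fraction (0 to 1) of 246 X-linked genes, kept by the authors where at least 10 allelic fragments were found in over 80% of WT samples and the uninduced ratio was 0.1 to 0.9. Total counts of 2292261 to 30005305 per library set the precision. Fragments without a variant are in the total and in neither allele.

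From the counts, CPM and Dom share (Dom of Cast plus Dom, at 10 or more allelic fragments) were computed, with Python 3.11.15 (pandas 2.3.3). Tests were edgeR (4.0.16) quasi-likelihood fits in R 4.3.3 over all 28 groups, with Benjamini-Hochberg adjustment and a threshold of 0.05, on total counts (16227 genes after filterByExpr, TMM), on Cast counts (13675 genes) and on Cast and Dom counts of each library (246 genes, a library term and a Dom term per group, which used all allelic fragments). Changes are log2 ± SE. Limits at a count of 0 take 3 counts. The scripts were tested on simulated data.

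The members and gene lists were chosen with earlier results of these data known. Named genes were the 4 members, the 3 genes most correlated with each, and at most 4 genes of a list, those with the smallest p. Replicate numbers of PCGF35_SPOC, DelPID_SPOC and SPOC mark clones, which pair libraries. For PCGF35, WT and DelPID the labels do not say what a number marks, although the study ran compared cultures in parallel (in PCGF35, 34 of 56 same-number pairs of libraries had a correlation of deviations above 0.1). Alternatives were other normalizations, no filter, DESeq2 (1.42.0), limma (3.58.1) on ratios, each comparison's groups alone, a clone or replicate block, 30 allelic fragments, all X-linked genes with 10 fragments, and each library left out. Allelic values of the other X-linked MAPK or pluripotency genes are not reported here.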

Additional observations from a re-analysis of the deposited data

Results flagged for a closer look

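The change in Dom share from ES d0 to NPC d6 differed between PCGF35_SPOC_dTAG and PCGF35_ctrl for all 4 genes, by the interaction contrast of the edgeR fit over 246 X-linked genes. The log2 difference was 2.19 for Tfe3, 3.06 for Klhl13 and 4.62 for Dusp9 (adjusted p = 6.27e-08, 1.11e-15 and 2.96e-06), and 96.3% of the X-linked genes were called in the same direction. For Nr0b1 the fitted difference was 8.01 (adjusted p = 5.55e-07), a value that depends on the prior count and is no estimate of size, since PCGF35_ctrl had 0 Dom fragments at NPC d6. Groups held 2 or 3 libraries, so single libraries were not tested as outliers.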

How the results depend on the processing

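Over all alternatives, 385 counts of called members stayed within 1.5 times the reported count and 38 did not, and of the single log2 changes 1421 kept their call and direction, 86 lost the call, 27 gained it, 44 uncalled ones changed sign or moved and 2 called ones reversed, Dusp9 in SPOC against WT (-0.16 without SPOC NPC d6 replicate 1, and up to 7.42 without the other libraries) and Nr0b1 in DelPID against WT (-4.72 without DelPID NPC d6 replicate 2, and up to 2.32 without the others), both in Dom share. Other normalizations, no filter and DESeq2 left every member count within 1.5 times, and a minimum of 30 allelic fragments left the 98 group mean shares that it still gave within 1 SD (Dusp9 in 15 of 25 groups, Nr0b1 in 27 of 28). With each comparison's groups fitted alone, the counts of called members became 2 for the share in DelPID against WT, 1 in PCGF35_dTAG against PCGF35_ctrl and 0 in PCGF35_SPOC_dTAG against PCGF35_SPOC_ctrl (4 with limma on ratios, 1 over 400 X-linked genes). For the total level they became 0 in PCGF35_SPOC_ctrl, PCGF35_SPOC_dTAG and DelPID_SPOC from ES d0 to NPC d6, and 1 from NPC d3 to NPC d6 in PCGF35_ctrl, in SPOC against WT and in PCGF35_dTAG against PCGF35_ctrl, and for the Cast level 0 in place of the Tfe3 rise. With a clone or replicate block, the total-level counts became 1 from NPC d3 to NPC d6 in PCGF35_ctrl (Dusp9, 1.55, adjusted p = 0.0248 in edgeR), 2 in SPOC against WT (Klhl13 0.79, 0.0197, and Tfe3 0.74, 0.0333), 1 in PCGF35_dTAG against PCGF35_ctrl (Klhl13 0.91, 0.0172) and 2 in the difference of changes, and the block removed the share call of Nr0b1 in DelPID against WT (1.46, 0.138). In PCGF35_ctrl from NPC d3 to NPC d6 the block also called Klhl13 (-0.97, 0.00164) and Tfe3 (-0.59, 0.0476), and it changed no other member's call beside Tfe3 in SPOC. The cause was not tested.

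Over all genes, the block moved the total-level calls from 1850 to 4116 in PCGF35_dTAG from ES d0 to NPC d6, from 3177 to 5612 in PCGF35_ctrl at NPC d3, from 195 to 2055 from NPC d3 to NPC d6, from 0 to 721 in SPOC against WT, from 0 to 156 in PCGF35_dTAG against PCGF35_ctrl and from 1 to 700 in the difference of changes. With the groups alone these became 1314, 4276, 3345, 406, 222 and 0, and 0, 0 and 1 in PCGF35_SPOC_ctrl, PCGF35_SPOC_dTAG and DelPID_SPOC.

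Leaving out 1 library at a time gave these ranges of called members. In Dom share they were 3 to 4 (PCGF35_ctrl), 1 to 2 (PCGF35_dTAG) and 1 to 2 (SPOC) at ES d1, 2 throughout in PCGF35_SPOC_ctrl at NPC d6, 3 to 4 in SPOC against WT, 1 to 4 in DelPID against WT, 2 in PCGF35_dTAG against PCGF35_ctrl, 3 to 4 in PCGF35_SPOC_ctrl against PCGF35_ctrl, 0 to 2 in PCGF35_SPOC_dTAG against PCGF35_SPOC_ctrl and 2 to 3 in DelPID_SPOC against DelPID. In total level they were 1 to 3 in PCGF35_ctrl at NPC d3, and at NPC d6 2 in PCGF35_ctrl, 1 to 2 in PCGF35_dTAG, 0 to 2 in PCGF35_SPOC_dTAG, 1 to 3 in SPOC and 0 to 2 for the difference of changes. In Cast level they were 1 to 2 in PCGF35_ctrl, and 2 to 3 lower and 0 to 1 higher over the 6 arms. Where an arm was left with 1 library, that library was assumed to vary like the other groups. Depth limits Dusp9 most, which had 10 or more allelic fragments in 47 of 58 libraries, and Nr0b1 in the PCGF35_ctrl and DelPID NPC d6 libraries.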
